A study of Mus musculus with 24 samples.

Results

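Zinc finger protein genes were followed in the livers of mice fed alcohol. They were taken from the table by name: the 18 genes whose symbol starts with Zfp, Zkscan, Zscan or Zbtb and goes on with a digit, less Zfp36 and Zbtb16, with Y-linked genes kept out. This left 16 of 2372 genes: 12 named Zfp, 3 named Zbtb, 1 named Zkscan and 0 named Zscan. RefSeq lists 465 protein-coding mouse genes with such symbols, so the 16 are a small share of the family, and how the genes of the table were chosen is not stated in the sources used here.

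All 24 mice, controls included, had been fed the Lieber-DeCarli alcohol diet for 3 weeks before whole-liver RNA was sequenced. Each mouse had 2 injections of short hairpin RNA (sh) vectors made from adeno-associated virus (AAV). The first was AAV-shControl, or AAV-shKdm5b with AAV-shKdm5c (the Kdm5 vectors), against a pair of histone H3 lysine 4 demethylases. The second was AAV-shControl or AAV-shAhR (the AhR vector), against the aryl hydrocarbon receptor, a ligand-activated transcription factor. The 8 groups of 3 mice, in each sex, were thus control (AAV-shControl at both injections), Kdm5 (Kdm5 vectors, then AAV-shControl), AhR (AAV-shControl, then AAV-shAhR) and both (Kdm5 vectors, then AAV-shAhR). The sources used here give no age or strain of the mice, and no promoter or cell type in which the hairpins act. Each library came from 1 mouse, and p-values measure the spread between mice.

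Zinc finger proteins hold small folds around a zinc ion. The common C2H2 fingers mostly bind DNA in a row, and in the Zbtb proteins they follow a BTB domain that recruits corepressors. Fingers of the CCCH type bind RNA, and KRAB-type proteins recruit the corepressor KAP1 (Trim28). In mouse liver, members of these families are known for setting sex-biased expression: the KRAB genes Rsl1 and Rsl2 repress male-type liver genes, and the BTB gene Bcl6 represses female-type ones.

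The label was checked on the annotated coding sequences. The C2H2 pattern (C, 2 to 4 residues, C, 12 residues, H, 3 to 5 residues, H) was found at least once in 14 of 16 proteins and at least 5 times in 9 of them, from 1 in Zfp704 to 30 in Zfp236. Of 2318 other genes of the table, 34 had it. Zfp36l1 had 0 such patterns and 2 of the CCCH type. Zbtb8os had neither: it is named for lying opposite Zbtb8a and encodes archease, a cofactor of the tRNA ligase complex, in 167 residues. The data go against the label for Zbtb8os, which is a zinc finger gene by symbol only.

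The promoters are shown here for 4 members on which the results turn: Zfp292 and Zfp950, higher in females, and Zbtb8os and Zbtb20, which passed in a vector comparison in females. Each is the 250 bases before 1 transcription start in RefSeq (GRCm38.p6), 5′ to 3′ on the gene's strand. For Zbtb20 and Zbtb8os this start lies inside the gene, which begins at 42875689 and 129335532. For Zfp292 and Zfp950, on the minus strand, it also lies inside, near the gene's upper end at 34882983 and 61140844. Any starts further upstream were not examined. Capitals mark GCGTG, the core of the AhR response element, on either strand (CACGC on the other). The windows are chr4:34882949-34883198 on the minus strand for Zfp292, chr19:61140841-61141090 on the minus strand for Zfp950, chr4:129335718-129335967 on the plus strand for Zbtb8os, and chr16:43247034-43247283 on the plus strand for Zbtb20.
Zfp292: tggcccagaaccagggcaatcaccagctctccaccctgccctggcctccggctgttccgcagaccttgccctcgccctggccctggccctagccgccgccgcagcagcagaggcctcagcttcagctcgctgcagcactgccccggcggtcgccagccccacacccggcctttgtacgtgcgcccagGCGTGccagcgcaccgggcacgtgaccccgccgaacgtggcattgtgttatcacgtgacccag
Zfp950: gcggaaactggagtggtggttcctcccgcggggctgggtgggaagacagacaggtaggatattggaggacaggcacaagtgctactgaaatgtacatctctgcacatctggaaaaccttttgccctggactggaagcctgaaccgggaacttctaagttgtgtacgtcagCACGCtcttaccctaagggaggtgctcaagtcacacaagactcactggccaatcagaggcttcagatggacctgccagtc
Zbtb8os: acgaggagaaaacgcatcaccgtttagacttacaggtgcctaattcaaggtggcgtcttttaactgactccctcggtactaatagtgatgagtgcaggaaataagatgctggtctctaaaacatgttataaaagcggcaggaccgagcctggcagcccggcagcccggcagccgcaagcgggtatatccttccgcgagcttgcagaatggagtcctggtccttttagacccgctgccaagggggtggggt
Zbtb20: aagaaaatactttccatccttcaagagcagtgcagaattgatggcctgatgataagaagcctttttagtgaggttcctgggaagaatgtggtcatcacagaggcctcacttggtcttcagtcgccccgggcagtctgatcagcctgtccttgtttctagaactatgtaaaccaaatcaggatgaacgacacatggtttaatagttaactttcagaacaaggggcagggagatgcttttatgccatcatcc
GCGTG is present in the windows of Zfp292 and Zfp950, and these letters are not in those of Zbtb8os and Zbtb20. RefSeq windows were used for 12 of the 16 members, 20 windows in all, and not for Zkscan5, Zfp865, Zfp236 and Zfp704. GCGTG lay in 6 of the 20 windows (30.0%), in 4 of the 12 members: Zfp292, Zfp950, Zfp488 and Zfp385b. It lay in 28.2% of 32851 mouse promoters of this length and in 39.0% of those of the table's genes. TTCNNNGAA is the core bound by STAT5, which carries the growth hormone signal that differs between male and female liver. This core lay in 0 of the 20 windows, in 7.02% of all promoters and in 5.90% of those of the table's genes. The windows held 11 CG pairs at the median, beside 12 for the table's genes and 6 for all promoters.

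Libraries correlated with their group mates at r of 0.984 to 0.994 across genes, which are not independent replicates. Values are FPKM, which divides a gene's fragments by transcript length and by the library's mapped fragments. Levels can thus be compared between genes. Their sums ran from 281871 to 326460 in females and from 380206 to 429780 in males, of which the genes for major urinary proteins (Mup) took 2.26% to 5.93% and 14.0% to 25.7%. Read depth is unknown, since FPKM removes it. Of the targeted genes, Kdm5b and Ahr were not analysed here, so the label of the AhR vector was not checked. Kdm5c in males was lower by 0.51 ± 0.11 on the log2 scale when the Kdm5 vectors were added to the AhR vector (adjusted p = 0.0124), and with control vectors as partner the log2 fold change was -0.38 ± 0.11 (adjusted p = 0.139). In females the same comparisons gave -0.25 ± 0.11 (adjusted p = 0.29) and -0.09 ± 0.11 (adjusted p = 0.66). The labels are therefore not borne out by Kdm5c in females, and "Kdm5 vectors" and "AhR vector" below mean the libraries labelled so.

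The members differed widely in level. The RNA decay factor Zfp36l1 was the most abundant, with a mean of 56.5 FPKM over 24 libraries and a range of 28.7 to 76.1 FPKM. Zfp488, a transcriptional repressor known from oligodendrocytes, followed at 25.7 FPKM, then Zbtb8os at 19.0 FPKM, Zfp385a (Hzf, a partner of p53) at 16.1 FPKM and its relative Zfp385b at 5.53 FPKM. The means of the other members ran from 3.85 FPKM for Zbtb4 down to 0.793 FPKM for Zfp704 and 0.31 FPKM for Zfp518b. A test was made for the 15 members that reached 1 FPKM in 3 libraries or more, which Zfp518b (0.08 to 0.55 FPKM) did not. All 16 matched RefSeq by gene ID.

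**Figure D1:**
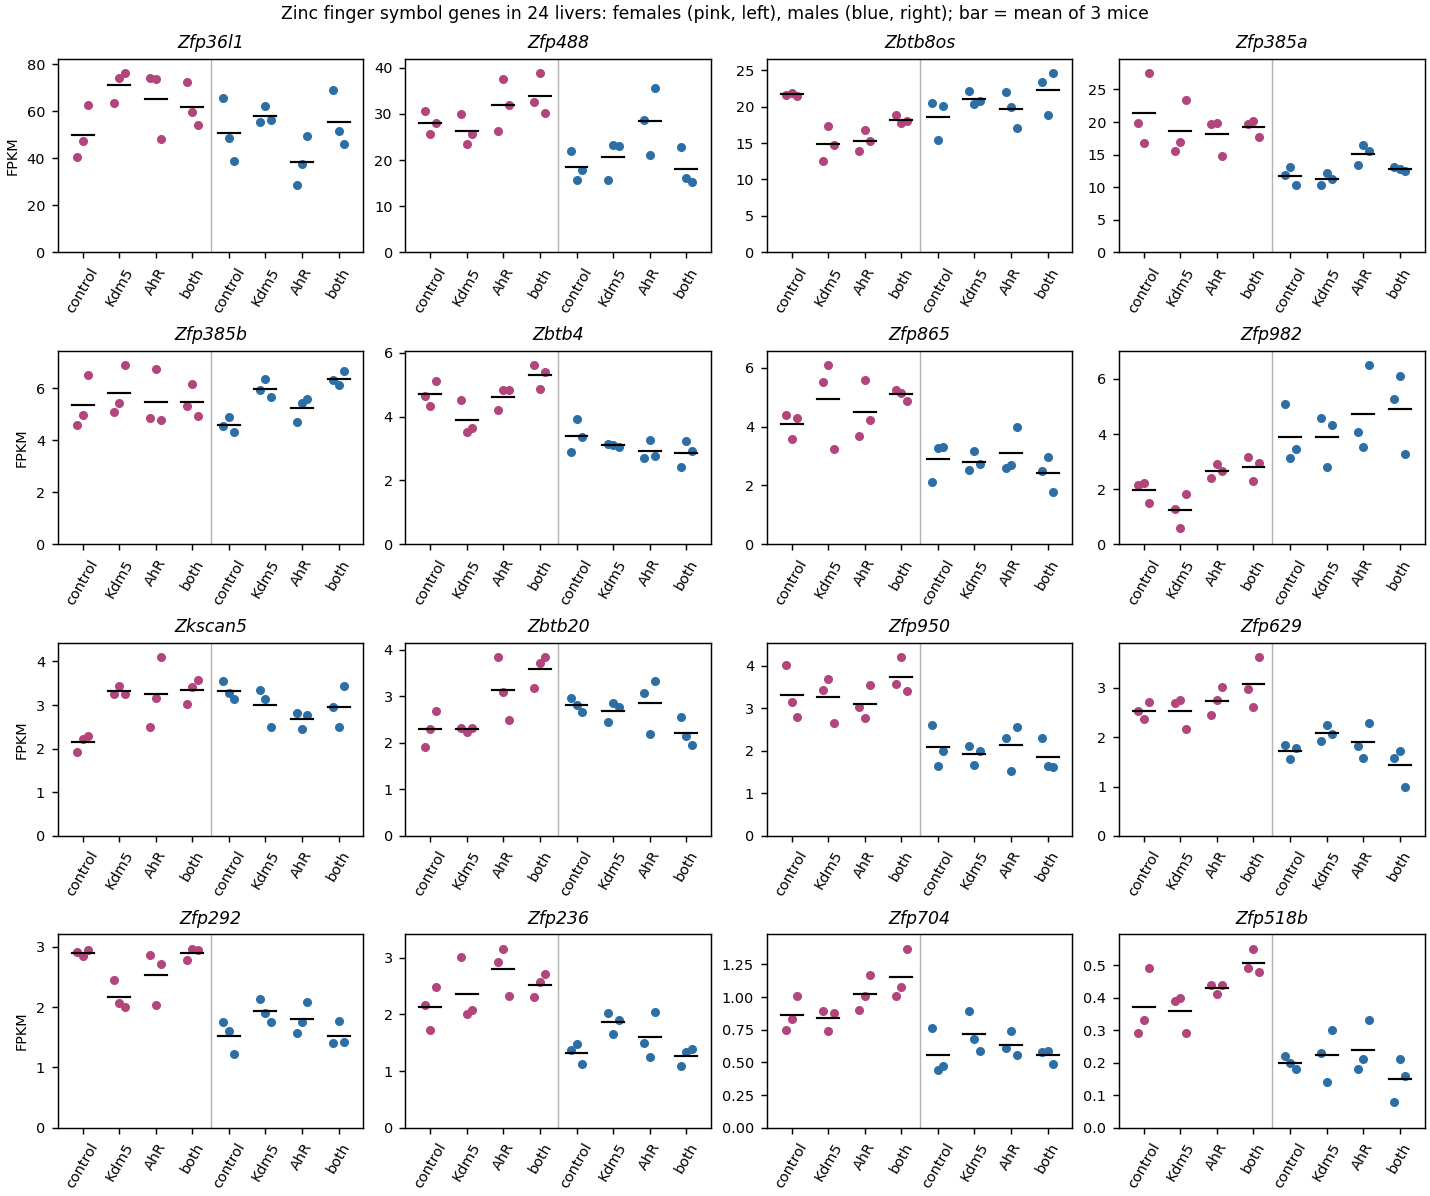
FPKM (y axis, linear, from 0) of each of the 16 members in 24 livers, by group (x axis: vector setting, females left in pink and males right in blue); points are mice and bars are means of 3. Zfp950 has all 12 females above all 12 males, and in Zkscan5 the 3 female control mice, at 1.93 to 2.28 FPKM, are the lowest of the 24.

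Some values may mix genes. Of the 50-base stretches of the Zbtb8os coding sequence, 59.3% are also found in Gm8539, and its exons overlap Zbtb8a on the other strand. As no source used here states a stranded count, Zbtb8os is uncertain in the tests that follow. Zfp982 shares 6.18% of its coding stretches with 30 genes, most with Zfp990, and Zfp36l1 shares 9.64% with Zfp36l1-ps. Zfp950 shares 1.58% with 7 genes, and the exons of Zfp865 overlap those of Ccdc106 and Zfp784.

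Females and males with control vectors were compared first. Of the 15 tested members, 10 differed by sex, 8 higher and 2 lower in females. Among the 2299 genes tested, 42.5% differed, 30.8% higher and 11.6% lower in females. The median member was 0.42 higher in females on the log2 scale, and the median of all genes was 0.15. The 8 higher in females were Zfp385a, Zfp292, Zfp488, Zfp950, Zfp236, Zfp629, Zbtb4 and Zfp704, and the 2 lower were Zfp982 and Zkscan5. Zfp704 reached the 1 FPKM needed for testing in female libraries alone, since males had 0.44 to 0.89 FPKM. Its calls as higher in females are thus not independent of the filter.

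Zfp292, a large protein first found as a binder of the growth hormone promoter, had 2.91, 2.85 and 2.95 FPKM in females with control vectors and 1.75, 1.61 and 1.22 FPKM in males. The groups did not overlap, and the female mice lay within 0.1 FPKM of each other. The log2 fold change was 0.76 ± 0.13 (SE; adjusted p = 0.000146, limma). Zfp385a had 19.87, 16.85 and 27.47 FPKM in females and 11.90, 13.14 and 10.31 FPKM in males, also without overlap, and the difference on the log2 scale was 0.81 ± 0.16 (adjusted p = 0.000571). Zfp982 went the other way, with 2.14, 2.21 and 1.5 FPKM in females and 5.10, 3.14 and 3.45 FPKM in males, a log2 fold change of -0.83 ± 0.27 (adjusted p = 0.0187).

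When each library was scaled by its median ratio to the others, the median of all genes moved from 0.15 to 0.03. The share of called genes that were higher in females then went from 72.6% to 54.3%. The member median moved from 0.42 to 0.31, and 7 of 15 members passed, 5 higher and 2 lower, beside 42.3% of all genes. Zfp488, Zfp629 and Zfp704 no longer passed, and none of the 10 called changed direction. Left out one at a time, female control replicate 3 and male control replicate 2 each brought the count to 6. The shares of all genes called in these fits are not reported here, so the fall is not read as particular to the members.

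Sex was then compared over all 4 vector settings, 12 females against 12 males. Of the 15 members, 12 differed, 10 higher and 2 lower in females, beside 62.3% of all genes tested (42.9% higher, 19.4% lower). The member median was 0.51, and the median of all genes was 0.08. Zfp704, among the 10, was tested through its female libraries alone. The 2 lower were Zfp982 and Zbtb8os. Zbtb8os went both ways, with a higher mean in females in 1 of 4 settings: with control vectors the means were 21.7 FPKM in females and 18.6 FPKM in males, without overlap (0.22 ± 0.13, adjusted p = 0.169). Zbtb20, Zfp385b and Zkscan5 did not pass, at 0.07, 0.00 and -0.01. With median-ratio scaling 11 of 15 passed, 9 higher and 2 lower, beside 70.9% of all genes, and Zfp36l1 (0.22, adjusted p = 0.0817) no longer did.

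Zfp950, a C2H2 protein with 17 finger patterns (chromosome 19, 61053840 to 61140844), ran from 2.65 through a median of 3.42 to 4.20 FPKM in females. In males it ran from 1.52 through 2.00 (median) to 2.61 FPKM. It was the 1 member whose 12 females and 12 males did not overlap, which held for 13.4% of all genes tested. Its log2 fold change was 0.63 ± 0.09 (adjusted p = 3.7e-06, limma).

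Zbtb4, a BTB repressor that binds methylated CpG, ran from 3.52 through a median of 4.73 to 5.61 FPKM in females and from 2.42 through 3.09 (median) to 3.92 FPKM in males. In 10 of 12 females it lay above every male, and its log2 fold change was 0.52 ± 0.06 (adjusted p = 3.78e-07). Zfp629 lay above every male in 11 of 12 females. Zfp865, with 20 finger patterns, had the highest log2 fold change of the members, 0.65 ± 0.11 (adjusted p = 2.07e-05), at means of 4.66 and 2.80 FPKM.

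Zfp982 (chromosome 4, 147443114 to 147516064) had the largest difference towards males among the members. Females ran from 0.59 through a median of 2.25 to 3.15 FPKM, and males from 2.80 through 4.21 (median) to 6.5 FPKM. In 9 of 12 females it lay below every male. The log2 fold change was -0.90 ± 0.14 (adjusted p = 7.17e-06), and males were higher in 4 of 4 vector settings.

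**Figure D2:**
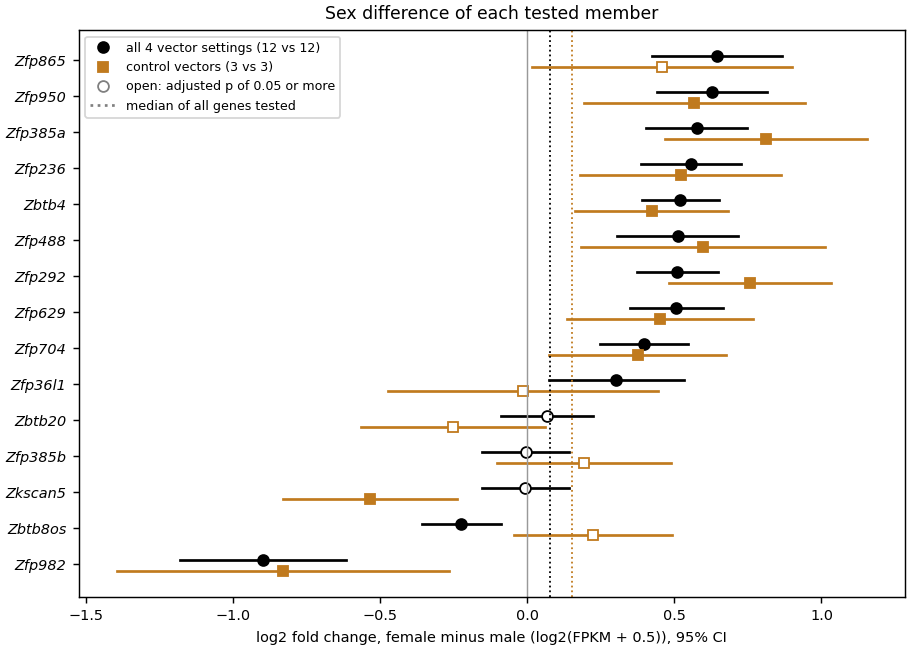
Log2 fold change, female minus male, of log2(FPKM + 0.5) (x axis) for the 15 tested members (y axis), with 95% confidence intervals; black circles are all 4 vector settings, orange squares control vectors alone, open symbols did not pass, and dotted lines are medians of all genes tested. The 10 black circles to the right, from 0.30 for Zfp36l1 to 0.65 for Zfp865, passed, as did Zbtb8os (-0.22) and Zfp982 (-0.90) to the left.

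Of all 16 members, 10 had a higher mean in females in 4 of 4 vector settings, 1 had it in 0 and 5 fell between. The share of all genes higher in 4 of 4 settings was not counted. Zfp518b, which was not tested, was among the 10, at 0.29 through 0.43 (median) to 0.55 FPKM in females and 0.08 through 0.21 (median) to 0.33 FPKM in males. The member median of the sex difference was 0.42 with control vectors, 0.24 with the Kdm5 vectors, 0.39 with the AhR vector and 0.65 with both. The median of all genes went from 0.15 through 0.11 and 0.06 to 0.06 in the same order. Of the 15 tested members, 11 were higher in females with control vectors, 11 with the Kdm5 vectors, 13 with the AhR vector and 12 with both. The shares of all genes were 65.0%, 62.4%, 55.4% and 56.5%. These settings were not compared by a test over the members.

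Markers of non-parenchymal liver cells differed by sex as well. Of 11 Kupffer cell and macrophage markers 7 were in the table, and their summed FPKM was 363 to 497 in females and 189 to 336 in males. For sinusoidal endothelium (6 of 8 markers) the sums were 73.1 to 111.0 and 48.3 to 66.8 FPKM, and for stellate cells (4 of 9) 111.2 to 173.8 and 73.8 to 106.9 FPKM. Hepatocyte markers (4 of 8) summed to 24650 to 33190 FPKM in females and 27920 to 33900 FPKM in males, and Sox9, the cholangiocyte marker in the table (1 of 6), had 0.66 to 1.59 and 0.70 to 2.44 FPKM. No marker that was measured was at 0 in any library, and the T and NK cell, B cell and neutrophil markers were not analysed here. The part of these markers, and of the Mup share, in the sex difference of the members was not tested, and in whole liver fewer cells of a type and less RNA per cell cannot be told apart.

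The Kdm5 vectors were compared with control vectors in each sex. In females 2 of 15 members passed, Zbtb8os lower and Zkscan5 higher, and 6.87% of all genes tested did. The member median was -0.02, as was that of all genes. In males limma called 0 of 15, with 2 at an unadjusted p under 0.05, beside 9.92% of all genes, and 1.22% of all genes passed. The sums of endothelial markers differed in the female comparison, at 96.1 to 97.9 FPKM with the Kdm5 vectors and 73.1 to 88.2 FPKM with control vectors. Of the 6 markers 2 passed, both higher, and the median log2 fold change of the 6 was 0.09. Stellate marker sums were 137.4 to 156.3 and 117.4 to 131.1 FPKM, with 0 of 4 markers called by limma (0 at an unadjusted p under 0.05). The median log2 fold change of these 4 markers was -0.21, so they did not all go the way of their sum. The part of these markers in the changes of Zbtb8os and Zkscan5 was not tested.

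Zbtb8os (chromosome 4, 129335532 to 129349871) had 21.64, 21.88 and 21.48 FPKM in females with control vectors and 12.60, 17.32 and 14.74 FPKM with the Kdm5 vectors. The 3 control mice were close together and all above the Kdm5 mice. The log2 fold change was -0.54 ± 0.13 (adjusted p = 0.0174, limma), 1.45-fold lower. In males the values were 20.44, 15.41 and 20.05 FPKM and then 22.11, 20.40 and 20.71 FPKM, groups that overlapped, and the change was 0.18 ± 0.13 (adjusted p = 0.756). The effect in females minus that in males was -0.72 ± 0.18 (adjusted p = 0.0488), the 1 member of 15 that passed, beside 1.74% of all genes. That difference passed in 2 of 12 fits that left out 1 library, those without female Kdm5 replicate 2 and without male control replicate 1. It did not pass with median-ratio scaling (-0.69, adjusted p = 0.0692).

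Zkscan5, a C2H2 protein of the KRAB and SCAN type with 12 finger patterns (chromosome 5, 145204559 to 145221752), had 1.93, 2.22 and 2.28 FPKM in females with control vectors. It had 3.25, 3.43 and 3.25 FPKM with the Kdm5 vectors, 2.49, 3.17 and 4.10 FPKM with the AhR vector and 3.02, 3.42 and 3.58 FPKM with both. The 3 control mice were the lowest of all 24 mice in the table. Males had 3.56, 3.28 and 3.14 FPKM with control vectors, and their other libraries 2.45 to 3.43 FPKM.

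The log2 fold change of Zkscan5 in females was 0.53 ± 0.14 with the Kdm5 vectors (adjusted p = 0.0317), 0.49 ± 0.14 with the AhR vector (adjusted p = 0.156) and 0.54 ± 0.14 with both (adjusted p = 0.0249). These comparisons share the 3 female control mice. With control vectors Zkscan5 was lower in females than in males, at -0.53 ± 0.14 (adjusted p = 0.0049). Zkscan5 with the Kdm5 vectors passed without female control replicate 2 or 3 and not without any 1 of the other 4 libraries. Zbtb8os did not pass without female Kdm5 replicate 1 (-0.43, adjusted p = 0.0827) or female control replicate 1 (-0.54, adjusted p = 0.0703), and without either of these 2 libraries 0 members passed. The shares of all genes called in those fits are not reported here.

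Added to the AhR vector, the Kdm5 vectors gave 0 calls among 15 members by limma in females (0 at an unadjusted p under 0.05, beside 15.4% of all genes) and 0 in males (3 at an unadjusted p under 0.05, beside 16.3%). Among all genes 0.696% and 3.26% passed. In females 13 of 15 log2 fold changes lay above 0 with a median of 0.11, beside 58.4% of all genes and a median of 0.04. In males 5 of 15 lay above 0 with a median of -0.15, beside 32.4% of all genes and a median of -0.08. The member nearest to passing was Zfp488 in males, with 28.75, 21.14 and 35.63 FPKM with the AhR vector and 22.79, 16.01 and 15.13 FPKM with both. These groups overlapped, and the log2 fold change was -0.64 ± 0.20 (adjusted p = 0.0813). Zfp36l1 in the same comparison was at 0.54 ± 0.22 (adjusted p = 0.208).

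The AhR vector against control vectors gave 0 of 15 calls by limma in females (3 at an unadjusted p under 0.05, beside 12.9% of all genes), where 0.217% of all genes passed, and 0 in males (2 at an unadjusted p under 0.05, beside 13.9%), where 1.09% did. The member median in males was 0.10 and, without male AhR replicate 3, -0.004. In that library 12 of 15 members lay above their group mean. Zbtb8os in females had 13.84, 16.77 and 15.27 FPKM, below the 3 control mice, a log2 difference of -0.49 ± 0.13 (adjusted p = 0.12). Zfp488 in males was at 0.59 ± 0.20 (adjusted p = 0.158). For the effect in females minus that in males, limma called 0 of 15 members (4 at an unadjusted p under 0.05, beside 13.8% of all genes) and 0.565% of all genes. Zkscan5 came nearest there, at 0.76 (adjusted p = 0.0936).

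Added to the Kdm5 vectors, the AhR vector gave 0 calls among 15 members by limma in females, with 6 at an unadjusted p under 0.05, beside 21.6% of all genes, and 2.09% of all genes passed. Of the 15 members, 13 log2 fold changes were above 0, with a median of 0.23, beside 58.6% of all genes and a median of 0.05. Zbtb20 was at 0.55 ± 0.15 and Zfp982 at 0.98 ± 0.27, each with an adjusted p of 0.06. Zfp982 had 1.27, 0.59 and 1.84 FPKM with the Kdm5 vectors and 3.15, 2.28 and 2.95 FPKM with both, without overlap. In males limma called 0 of 15 (2 at an unadjusted p under 0.05, beside 16.5% of all genes), and 0.913% of all genes passed. There 4 of 15 members were above 0, with a median of -0.11, beside 48.0% of all genes and a median of -0.01.

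Both vector sets against control vectors gave 2 of 15 calls in females, Zbtb20 and Zkscan5, both higher, beside 11.6% of all genes. In females, 12 of 15 members were above 0, with a median of 0.23, beside 52.6% of all genes and a median of 0.02. At an unadjusted p under 0.05 by limma were 2 of 15 members, beside 29.9% of all genes. In males limma called 0 of 15 (1 at an unadjusted p under 0.05, beside 14.8% of all genes), and 2.35% of all genes passed. The 1 member was Zfp385b, at 0.43 ± 0.14 (adjusted p = 0.114).

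Zbtb20, a BTB repressor known for silencing alpha-fetoprotein (Afp) in the adult liver (chromosome 16, 42875689 to 43634392), had 1.91, 2.29 and 2.69 FPKM in females with control vectors and 3.17, 3.72 and 3.84 FPKM with both. The Kdm5 vectors alone gave 2.32, 2.23 and 2.31 FPKM and the AhR vector alone 3.84, 3.09 and 2.49 FPKM, both overlapping the controls. With both, the groups did not overlap, and the log2 fold change was 0.55 ± 0.15 (adjusted p = 0.0287, limma), 1.46-fold higher. In males the controls had 2.97, 2.80 and 2.66 FPKM and the mice with both 2.55, 2.14 and 1.96 FPKM, a log2 difference of -0.29 ± 0.15 (adjusted p = 0.389). Every male with both vector sets lay below every male control, the opposite order to the females.

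Afp itself was higher in the same females, at 0.05, 0.23 and 0.33 FPKM with control vectors and 16.00, 25.16 and 21.42 FPKM with both, a log2 fold change of 4.92 ± 0.29 (adjusted p = 5.95e-10). It was also higher with the Kdm5 vectors alone (3.62 ± 0.29, adjusted p = 1.59e-07), where Zbtb20 was at 0.00 ± 0.15 (adjusted p = 0.993). With the AhR vector alone Afp was higher by 4.50 ± 0.29 (adjusted p = 3.1e-09), and Zbtb20 was at 0.37 ± 0.15 (adjusted p = 0.281). In males Afp did not pass by limma with the Kdm5 vectors (0.59 ± 0.29, adjusted p = 0.51) or the AhR vector (0.51 ± 0.29, adjusted p = 0.454). With both it was at 0.10 ± 0.29 (adjusted p = 0.938). Any link between Zbtb20 and Afp was not tested.

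The effect of both vector sets in females was set against that in males after the values of Zbtb20 had been seen. Of 15 members 2 passed, Zbtb20 at 0.84 ± 0.21 (adjusted p = 0.0225) and Zkscan5 at 0.69 ± 0.20 (adjusted p = 0.0463), beside 5.92% of all genes. The calls of both genes in females were lost without female both replicate 2, female both replicate 3 or female control replicate 1, when adjusted p lay between 0.071 and 0.119. Of 12 fits that left out 1 library, the difference between the sexes passed in 7 for Zbtb20 and in 3 for Zkscan5.

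**Figure D3:**
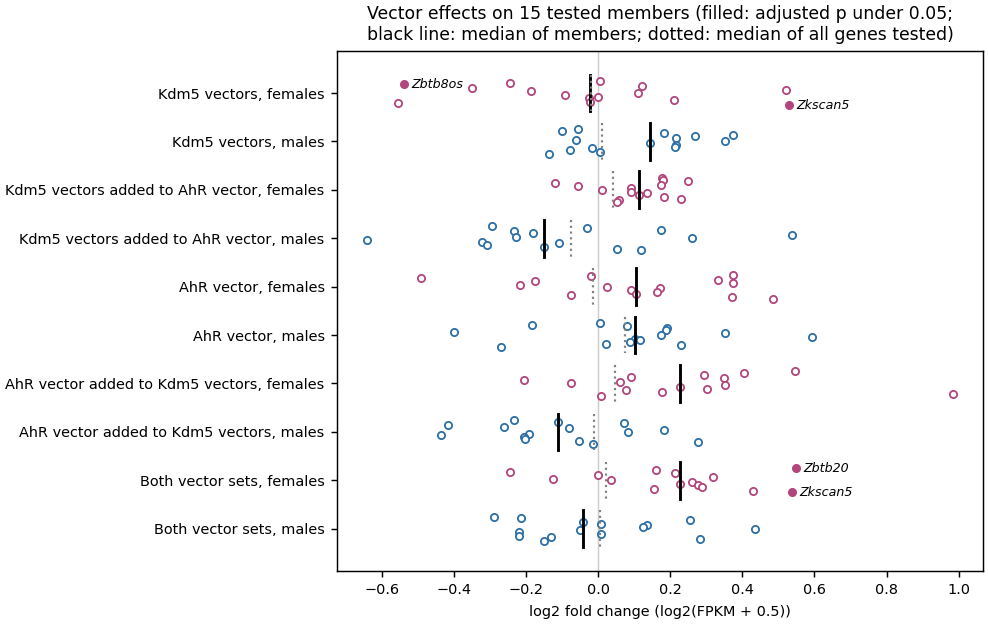
Log2 fold changes on the log2(FPKM + 0.5) scale (x axis) of the 15 tested members in 10 vector comparisons (y axis), females pink and males blue; filled points passed, the black line is the member median and the dotted line the median of all genes. The 4 filled points are all in females: Zbtb8os and Zkscan5 with the Kdm5 vectors, and Zbtb20 and Zkscan5 with both vector sets.

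The pattern over the 8 groups was then described with no test. Each member was set against the mean of its own sex. In females, 4 of 15 members lay above it with control vectors, 4 with the Kdm5 vectors, 9 with the AhR vector and 14 with both. The shares of all genes in these groups were 51.0%, 44.3%, 46.7% and 56.4%. In males the counts were 6, 11, 10 and 5 of 15, beside 40.5%, 47.5%, 68.9% and 44.8% of all genes. Females with both were the highest of the 8 groups for 9 of the 16 members and the lowest for 0. Males with both were the lowest for 9 and the highest for 3 (Zbtb8os, Zfp982 and Zfp385b). The highest and lowest groups were not counted for all genes, so these counts have no background and are not read as particular to the members.

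**Figure D4:**
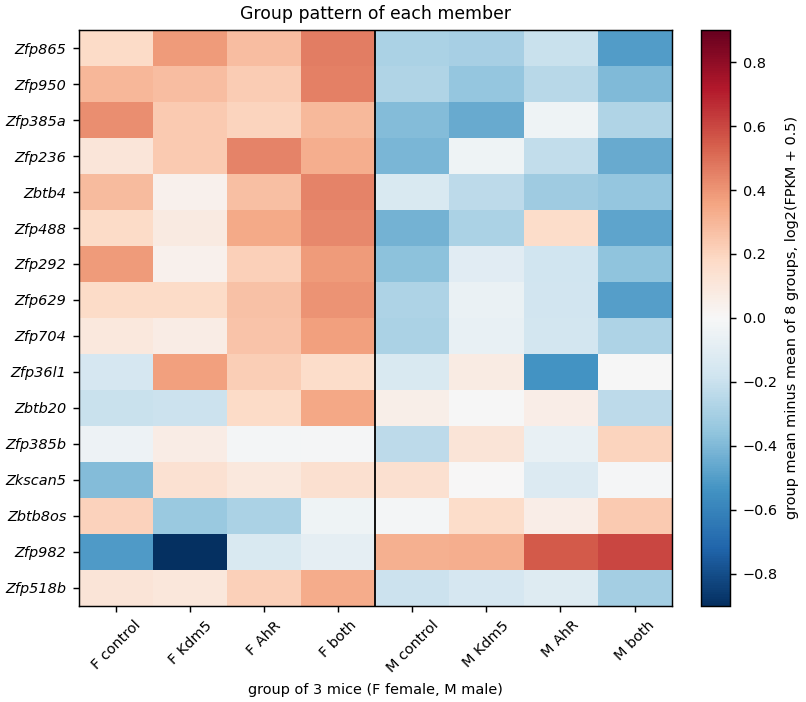
Group means of log2(FPKM + 0.5) minus the mean of the 8 groups (colour, red above and blue below) for the 16 members (rows, ordered by sex difference, with the untested Zfp518b last) in the 8 groups (columns, F female, M male). Most rows are red on the left and blue on the right, and Zfp982 is the reverse. Females with both vector sets are the highest group in 9 rows, a count not made for all genes.

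By the median of their sums, stellate and endothelial markers were also highest in females with both vector sets. The summed levels were 152.3 to 173.8 FPKM against 117.4 to 131.1 FPKM with control vectors for stellate cells, and 96.2 to 111.0 against 73.1 to 88.2 FPKM for endothelium. In that comparison 1 of 4 stellate and 1 of 6 endothelial markers passed, both higher. Kupffer cell and macrophage markers had median sums of 451.5 FPKM with both and 452.2 FPKM with control vectors, and 0 of 7 passed. The part of these markers in the rise of Zbtb20 and Zkscan5 was not tested.

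Beyond sex and vectors, the members did not move as 1 block. Over the 24 libraries, after the group means were taken off, the 105 pairs of tested members had a median r of 0.09, beside 0.04 for all genes tested. Of the pairs, 64.8% were above 0, beside 54.9% for all genes, and 1.90% were above 0.6, beside 2.07%. The highest were Zfp385a with Zfp385b (0.78), which are paralogs, and Zfp36l1 with Zfp385a (0.63). The lowest was Zfp292 with Zbtb8os (-0.63). All points share their libraries and the scaling of each library.

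Partner genes and other C2H2 genes were counted for context. Of 21 KAP1 and heterochromatin partners 2 were in the table, Atf7ip and Atrx. Both were higher in females over all settings, at 0.38 ± 0.05 (adjusted p = 1.93e-06) and 0.37 ± 0.07 (adjusted p = 5e-05), beside 42.9% of all genes tested. Atf7ip also rose in females with both vector sets (0.35 ± 0.10, adjusted p = 0.0355). Of 28 BTB and deacetylase partners 3 were in the table, and 2 of the 3 were higher in females over all settings. Ncor1, a corepressor of BTB proteins and nuclear receptors, was among them (0.36 ± 0.06, adjusted p = 4.46e-05). The effect of both vector sets, females minus males, passed for Atf7ip (0.64 ± 0.15, adjusted p = 0.0164).

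Of 78 other C2H2 genes 15 were in the table. Of the 15, 9 were higher and 0 lower in females over all settings, beside 42.9% and 19.4% of all genes tested. Sall1 (1.28), Peg3 (1.12), Klf6 (0.70) and Zeb2 (0.62) had the highest log2 fold changes of the 9. Zfhx4 (0.65 ± 0.14, adjusted p = 0.00944) and Zhx3 (0.50 ± 0.15, adjusted p = 0.0414) rose in females with both vector sets. In males Zhx3 rose with the Kdm5 vectors (0.73 ± 0.15, adjusted p = 0.0193). The BTB repressor Bcl6 rose with the AhR vector in males (2.38 ± 0.29, adjusted p = 0.000111), as did Klf15, and fell by 3.29 when the Kdm5 vectors were added to it. No change of that size was seen for a member in those comparisons, where the members lay between -0.64 and 0.59.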

How the data were processed

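Liver RNA of 24 mice (8 groups of 3) was read from 1 deposited table, in which the authors give FPKM with 2 decimals per gene and library, per the file headers. HISAT and Bowtie2 with GRCm38.p6 are named, per the submitters' processing notes; their versions, and how fragments were counted, are not given in the sources used. Groups came from the labels alone. Read depth is unknown, so no counting interval is given.

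Values were tested as log2(FPKM + 0.5) with limma 3.58.1 (R 4.3.3) fitted to the 24 libraries together with a mean for each of 8 groups, robust moderation and a variance trend on level (16 residual degrees of freedom). The fit took the 2299 of 2372 genes that reached 1 FPKM in 3 or more libraries. Benjamini-Hochberg adjustment ran over all of them, with a threshold of 0.05. A ± is the standard error of a log2 fold change, a scale that understates low genes. There were 14 planned comparisons and 1 added after seeing the data. The members and lists were chosen with earlier results of these data known.

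Members named are those that passed in any comparison, the 5 with the highest mean and those with textbook roles; from the partner lists, up to 4 that passed per comparison. A few others were named after their values were seen. Some genes that the rule takes from the partner lists are not reported here. Coding sequences were read from GENCODE vM21, and promoters, names and positions from RefSeq (both GRCm38.p6), with Python 3.11.15. The procedure was tested on simulated data. Alternatives were another scaling, other filters and pseudocounts, the compared groups alone and leaving out each library.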

Additional observations from a re-analysis of the deposited data

Results flagged for a closer look

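The effect of the Kdm5 vectors on Zbtb8os differed between the sexes, at -0.72 on the log2 scale for females minus males, by a test of the difference itself (adjusted p = 0.0488, limma). This passed in 2 of 12 fits that left out 1 library, and not with median-ratio scaling (adjusted p = 0.0692). The female values of Zbtb8os fell from 21.5 to 21.9 FPKM with control vectors to 12.6 to 17.3 FPKM, and its male values were 15.4 to 20.4 and 20.4 to 22.1 FPKM. Its values may mix with those of Gm8539.

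The effect of both vector sets differed between the sexes for Zbtb20 (0.84) and for Zkscan5 (0.69), by a test of the difference that was chosen after the values had been seen. Of 12 fits that left out 1 library, it passed in 7 for Zbtb20 and in 3 for Zkscan5. For Zbtb20 every female with both vector sets lay above the female controls, and every male below the male controls, where the change did not pass (-0.29, adjusted p = 0.389). No outlying library was sought within groups, since they hold 3 mice each.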

How the results depend on the processing

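No paired analysis was possible because replicate numbers were given in the order of the samples and pair no mice. No called result changed direction under the alternatives run. With median-ratio scaling, with a pseudocount of 0.1 and with the compared groups alone, the Kdm5 effect in females minus males called 0 members (2.17%, 1.44% and 0.663% of all genes). With a filter of at least 5 FPKM in at least 3 libraries, which tests 8 members, the Kdm5 vectors in females called 1 (8.08% of all genes), both vector sets in females 0 (12.7%), their effect in females minus males 0 (5.25%), sex with control vectors 4 (38.8%) and sex over all settings 7 (55.6%). With the compared groups alone, which leaves fewer samples to estimate the spread, the Kdm5 vectors in females called 0 members and 1 of 2227 genes, both vector sets in females 0 members and 0.936% of all genes, and sex with control vectors 6 members and 29.9% of all genes. The filter set aside and a pseudocount of 1 left each of these counts within 1.5 times.

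Leaving out 1 library at a time gave 0 to 2 calls for the Kdm5 vectors in females, 0 to 2 for both vector sets in females, 6 to 9 for sex with control vectors, 0 to 1 for the Kdm5 effect and 0 to 2 for the effect of both vector sets in females minus males. It gave 0 to 1 for the Kdm5 vectors added to the AhR vector in males (1 without male both replicate 1 or male AhR replicate 2), 0 to 1 for the AhR vector in females (1 without female AhR replicate 1) and 0 to 1 for the AhR vector added to the Kdm5 vectors in females (1 without female Kdm5 replicate 1). Sex over all settings called 12 in each of 24 such fits. The shares of all genes called in the fits that left out 1 library are not reported here. These counts are therefore not read as particular to the members. Depth is unknown, so the counting error of members with low levels could not be given.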
